A study of Mus musculus with 66 samples.

Results

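GABA-A receptors are chloride channels opened by GABA, the main inhibitory transmitter of the brain and the transmitter of the medium spiny neurons (MSNs) that make up most of the nucleus accumbens (NAcc). Each receptor is a ring of subunits, usually alpha and beta subunits joined by a gamma or a delta subunit, and the mixture sets where the receptor sits and how it responds. Receptors with a gamma subunit gather at synapses and carry brief inhibition, whereas those with the delta subunit lie mainly outside synapses, respond to low ambient GABA and to neurosteroids, and carry tonic inhibition. The 7 subunit genes examined were the alpha genes Gabra2, Gabra3, Gabra4 and Gabra5, the beta genes Gabrb1 and Gabrb2, and Gabrd, which encodes the delta subunit. They were the entries of the expression table with exactly these symbols, 7 of 24138 entries, and all 7 passed the filter on low values that left 14643 entries for testing.

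RNA-seq was carried out on NAcc punches from C57BL/6 mice, labelled ventral striatum, kept in a cycle of 12 h light and 12 h dark. Wild type (WT) mice were compared with iMSN-D2RKO mice, in which both copies of the D2 receptor gene are floxed and Cre under the dopamine D1 receptor promoter removes it in embryonic precursors that give rise to D2 receptor-expressing spiny neurons (iMSNs). At zeitgeber time (ZT) 3, mice received saline or 20 mg/kg cocaine intraperitoneally, and tissue was collected at ZT7, ZT11, ZT15, ZT19 and ZT23, with 3 libraries per genotype, treatment and time. A further 3 libraries of each genotype were collected at ZT3 and stood at the start of both its saline and its cocaine series, so the 2 series of a genotype shared them. This gave 66 libraries in 22 groups. Values are FPKM, fragments per kilobase of transcript scaled to the size of the library, so levels can be compared between genes. The source of the 3 libraries of a group (single mice or separate dissections) was not stated in the labels, so p-values measure the spread between these libraries.

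Total FPKM ranged from 364078 to 690048 per library. Relative sequencing depth, estimated from the nonzero values of 1439 genes detected in 3 to 15 libraries, ran from 0.346 to 1.75. Spiny neuron markers were high throughout (a summed level of 2684 to 15772 FPKM over 10 genes). Drd2, the targeted gene, overlapped between WT (99.1 to 304 FPKM) and iMSN-D2RKO libraries (78.0 to 375 FPKM). The deleted stretch could not be separated from the rest of the gene in these values. In 13 libraries the whole profile stood apart from the other 53 on the main axis of variation within groups. Of these, 12 were from dark hours (4 in saline-treated iMSN-D2RKO, 2 in cocaine-treated iMSN-D2RKO and 3 each in saline- and cocaine-treated WT mice) and 1 was from cocaine-treated iMSN-D2RKO mice at ZT7. They are termed set-apart libraries, and the results that rest on them are given with and without them.

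The 7 genes lie on 5 chromosomes of the GRCm38 assembly. Gabra2 (chr5:70957597-71095849, minus strand), Gabra4 (chr5:71569749-71658308, minus strand) and Gabrb1 (chr5:71658113-72149037, plus strand) share a cluster on chromosome 5. Gabra4 and Gabrb1 start head to head, their first bases only 195 bases apart on opposite strands, and their ends overlap over that stretch. The libraries were strand-specific, but whether strand was used in counting is not given in the sources used here. Gabra5 lies at chr7:57407672-57510059 (minus strand), Gabra3 at chrX:72432681-72656848 (minus strand), Gabrb2 at chr11:42419757-42629028 (plus strand) and Gabrd at chr4:155384980-155398112 (minus strand). Gabrd was the most compact of them, spanning 13.1 kb with a 1921-base transcript of 56.8% GC. The other 6 spanned 88.6 to 491 kb, and their transcripts held 38.4% to 47.1% GC.

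The 3 windows printed here are the 250 bases before a start of Gabra2, Gabra3 and Gabra5. These are the alpha genes called as differing between light and dark hours within a series. Those calls depended on the libraries kept, as given below. They come from RefSeq (GRCm38.p6) and are written 5′ to 3′ on the strand of the gene, with GC boxes (GGGCGG or its reverse complement) in capitals. The windows lie at chr5:71095850-71096099, chrX:72656920-72657169 and chr7:57510060-57510309, all on the minus strand. A window of another Gabra3 start, at chrX:72656808-72657057 (39.2% GC, 0 GC boxes), is not printed.
Gabra2: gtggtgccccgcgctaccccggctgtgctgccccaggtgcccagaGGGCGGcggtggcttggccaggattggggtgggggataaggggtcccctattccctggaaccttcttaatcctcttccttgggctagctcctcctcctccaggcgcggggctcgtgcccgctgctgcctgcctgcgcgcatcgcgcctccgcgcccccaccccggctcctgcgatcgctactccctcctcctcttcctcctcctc
Gabra3: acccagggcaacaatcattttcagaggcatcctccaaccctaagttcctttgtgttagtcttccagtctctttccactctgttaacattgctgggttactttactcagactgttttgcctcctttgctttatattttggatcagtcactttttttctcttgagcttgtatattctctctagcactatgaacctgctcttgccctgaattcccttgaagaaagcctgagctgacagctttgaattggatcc
Gabra5: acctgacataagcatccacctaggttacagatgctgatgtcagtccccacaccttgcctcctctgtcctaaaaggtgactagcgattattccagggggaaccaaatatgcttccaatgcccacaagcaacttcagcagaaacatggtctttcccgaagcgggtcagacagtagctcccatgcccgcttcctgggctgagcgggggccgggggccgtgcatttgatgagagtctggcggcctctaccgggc
The Gabra2 window was rich in GC (70%) and held 1 GC box, while those of Gabra3 (42.4% GC) and Gabra5 (56.4% GC) held none. Over 32817 mouse promoter windows of the same length, 32.7% held a GC box. Windows were found for 6 of the 7 genes, all but Gabrd. On either strand, none of them held AGGTCA (the half-site of nuclear receptors, in 14% of all windows), CACGTG (an E-box, 6.02%) or TGACGTCA (the cAMP response element, 1.55%). These are matches of letters only.

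Gabrd had the highest mean level of the 7 genes, 88.6 FPKM over the 66 libraries, above 94.2% of the entries tested. Gabra4, the alpha subunit that commonly partners the delta subunit outside synapses, followed at 63.4 FPKM and was higher than Gabrb2, a beta subunit found in receptors throughout the brain (39.0 FPKM), in 66 of 66 libraries. Gabra5, whose product is also mostly found outside synapses, averaged 23.3 FPKM, Gabra2, a synaptic alpha subunit of the forebrain, 23 FPKM, and Gabra3 22.1 FPKM. These 3 could not be ranked, since Gabra5 exceeded Gabra2 in 29 and Gabra2 exceeded Gabra3 in 38 of 66 libraries. Gabrb1 was lowest at 13 FPKM, under Gabra3 in 64 of 66 libraries. Gabrd was above Gabra4 in 52 of the 53 libraries that were not set apart and in 0 of the 13 set-apart libraries.

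The spread over all libraries was widest for Gabra3 (coefficient of variation 40.4%) and narrowest for Gabrb2 (24.6%), with Gabrd at 29.0%. By group mean, Gabrd ran from 50.3 FPKM in cocaine-treated WT mice at ZT19 to 122 FPKM in saline-treated iMSN-D2RKO mice at ZT7. At the WT cocaine ZT19 group, where Gabrd was lowest, the group means of Gabra2 (30.3 FPKM), Gabra3 (37.7 FPKM) and Gabra5 (39.1 FPKM) were at their highest. Of those 3 libraries, 2 were set apart. The third was not, and held Gabrd at 51.4 FPKM, Gabra3 at 43.9 FPKM, Gabra5 at 34.6 FPKM and Gabra2 at 21.3 FPKM. Gabra2 was at 29.1 and 40.6 FPKM in the set-apart libraries, so its high mean rested on those alone.

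In the course of Gabrd, the 3 WT libraries at ZT3 held 91.7, 75.6 and 103 FPKM. After saline, WT values were 103, 115 and 96.9 FPKM at ZT7, 94.1, 123 and 80.6 FPKM at ZT11, and 89.0, 88.4 and 95.1 FPKM at ZT15. They were 63.5, 56.6 and 104 FPKM at ZT19 and 53.8, 99.2 and 94.7 FPKM at ZT23. The low values at ZT19 and ZT23 were the 3 set-apart libraries of this series, and the other libraries of those times lay within the range of the light hours. After cocaine, WT values were 115, 128 and 105 FPKM at ZT7, 122, 116 and 104 FPKM at ZT11, and 125, 87.8 and 70.5 FPKM at ZT15. They then stood at 41.5, 51.4 and 58.2 FPKM at ZT19 and 75.1, 98.3 and 49.9 FPKM at ZT23. All 3 libraries at ZT19 were below every light-hour library of the series, whether set apart or not.

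In iMSN-D2RKO mice, Gabrd was at 89.3, 112 and 123 FPKM at ZT3. After saline it was at 181, 89.6 and 96.9 FPKM at ZT7, 81.7, 96.1 and 76.0 FPKM at ZT11, and 74.3, 46.7 and 93.2 FPKM at ZT15, then at 56.3, 84.5 and 39.3 FPKM at ZT19 and 93.3, 119 and 38.5 FPKM at ZT23. The value of 181 FPKM came from the library with the highest total FPKM of all, in which the summed spiny neuron and cortical markers were also the highest. The 4 values under 60 FPKM at ZT15 to ZT23 were the 4 set-apart libraries of the series. After cocaine, Gabrd was at 91.5, 51.2 and 89.9 FPKM at ZT7, 79.5, 107 and 89.8 FPKM at ZT11, 109, 84.5 and 51.0 FPKM at ZT15, 93.3, 85.2 and 108 FPKM at ZT19, and 58.9, 93.9 and 89.6 FPKM at ZT23. The 3 values under 60 FPKM were again the set-apart libraries, and the remaining 12 libraries of ZT7 to ZT23 lay between 79.5 and 109 FPKM.

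**Figure D1:**
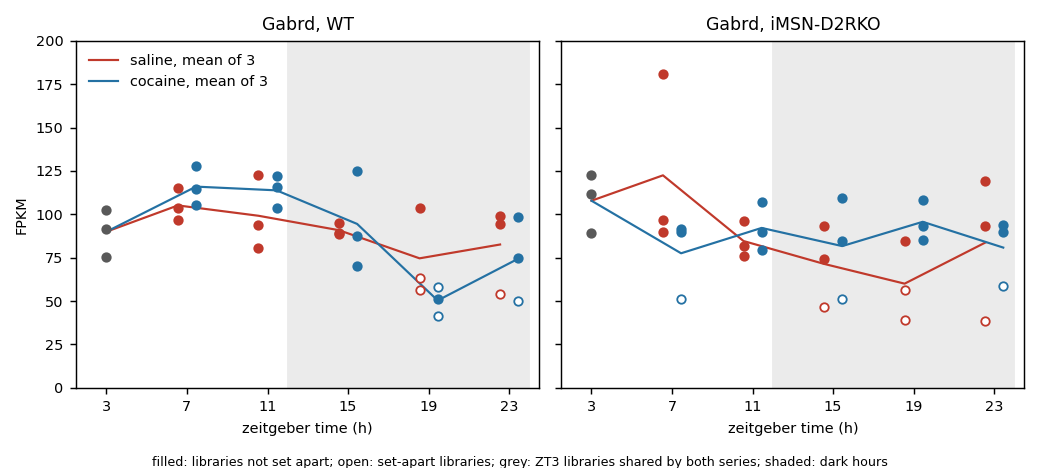
Level of Gabrd (FPKM, linear axis) against zeitgeber time in WT (left) and iMSN-D2RKO mice (right), with 1 point per library and lines through the means of 3 libraries. Open points are set-apart libraries, grey points the ZT3 libraries shared by both series, and the shaded area marks dark hours. The WT cocaine mean falls to 50.3 FPKM at ZT19, while the iMSN-D2RKO cocaine mean stands at 95.7 FPKM at that time.

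Rhythms over the day were tested with JTK_CYCLE, an exact rank test against cosine curves of 20 to 24 h, at a corrected p under 0.01. Each exact p given is this corrected value, over 11 pairs of period and phase. In WT mice given saline, 0 of the 7 genes were rhythmic, against 9.81% of all entries tested, and Gabrd had an exact p of 0.839. After cocaine, 2 of 7 were rhythmic, against 7.61% of all entries. Gabrd was rhythmic with an exact p of 0.00115 and a peak at ZT9, and Gabra3, an alpha subunit best known from monoaminergic and reticular thalamic neurons, with an exact p of 0.00507 and a peak at ZT22. In iMSN-D2RKO mice given saline, 1 of 7 was rhythmic, against 2.58% of all entries. It was Gabra2, with an exact p of 0.00255 and a peak at ZT21, and Gabrd had an exact p of 0.0623. After cocaine in iMSN-D2RKO mice, 0 of 7 were rhythmic, against 1.10% of all entries. Without the set-apart libraries, none of the 3 calls passed 0.01: exact p was 0.0435 for Gabrd, 0.0488 for Gabra3 and 0.0124 for Gabra2.

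A rhythm called in one series and not in another need not differ between them, so the difference was tested itself with limma. The test of cocaine against saline used ZT7 to ZT23 only, since both series share the ZT3 libraries. The JTK_CYCLE calls and the test between the genotypes took in ZT3 as well. Between cocaine and saline, 0 of 7 genes passed in WT mice, where 0% of all entries passed, and 0 of 7 in iMSN-D2RKO mice (0%). Between the genotypes, 0 of 7 passed after saline (0%) and 0 of 7 after cocaine (0%). At an unadjusted p under 0.05 there were 2, Gabrd and Gabra3 (adjusted p = 0.570 for each), both in the comparison of the genotypes after cocaine. The fitted amplitude of Gabrd on the log2 scale was 0.54 in WT and 0.071 in iMSN-D2RKO mice, and that of Gabra3 was 0.65 and 0.057. These differences did not pass the correction over all entries. The fits kept the set-apart libraries, and amplitudes without them are not given. In the cocaine series these lay at ZT19 (2 libraries) and ZT23 (1) in WT mice. In iMSN-D2RKO mice they lay at ZT7, ZT15 and ZT23 (1 each).

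Dark hours (ZT15 to ZT23) were then compared with light hours (ZT3 to ZT11) within each series. Fold changes are on the scale of log2(FPKM + 1) with standard errors (SE), and adjusted p-values are from limma over all entries. In WT mice after cocaine, Gabrd was lower and Gabra3 higher in dark hours. In iMSN-D2RKO mice after saline, Gabrd was lower and Gabra2 and Gabra5 higher. No gene of the 7 passed in WT mice after saline or in iMSN-D2RKO mice after cocaine. Gabra4, Gabrb1 and Gabrb2 passed in none of the 4 series.

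In WT mice after cocaine, 2 of 7 genes passed, against 13.7% of all entries. Gabrd held 75.6, 105 and 128 FPKM (lowest, median and highest of 9 libraries) in light hours and 41.5, 70.5 and 125 FPKM in dark hours, a change of -0.60 (SE 0.18, adjusted p = 0.0273). The ranges overlapped, since dark-hour libraries at ZT15 (125 and 87.8 FPKM) and ZT23 (98.3 FPKM) lay above the lowest light-hour library. Gabra3 held 10.7, 17.3 and 21.2 FPKM in light and 10.7, 24.1 and 43.9 FPKM in dark hours, a change of 0.57 (SE 0.19, adjusted p = 0.0405). Its high values were at ZT19 (38.5, 43.9 and 30.7 FPKM) and ZT23 (24.1, 21.4 and 43.6 FPKM), while ZT15 (11.1, 18.2 and 10.7 FPKM) was as low as the light hours. Without the set-apart libraries both genes kept their direction, with changes of -0.50 for Gabrd and 0.55 for Gabra3. ZT19 then rested on 1 library. That library stood at 15.1 on the axis of the set-apart libraries, which themselves lay at 44.3 to 56.1. It was the highest of the 53 other libraries (median -13.0), and ZT15 replicate 3, also kept, stood at 12.8. With the position of each library on the axis of the set-apart libraries as a covariate, neither passed (-0.21, adjusted p = 0.242, and 0.20, adjusted p = 0.406).

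Both calls were close to the threshold of 0.05. That of Gabrd was lost when any of 4 single libraries was left out, WT ZT3 replicate 3 (adjusted p = 0.0521), cocaine ZT15 replicate 3 (0.0535), cocaine ZT19 replicate 1 (0.0504) or cocaine ZT23 replicate 3 (0.105). That of Gabra3 was lost with any of 11 of the 18 libraries left out, namely ZT3 replicates 1, 2 and 3, ZT7 replicates 1 and 2, ZT11 replicates 1 and 2, ZT15 replicate 2, ZT19 replicates 1 and 2, and ZT23 replicate 3, with adjusted p from 0.0539 to 0.146.

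In WT mice after saline, 0 of 7 passed, against 2.75% of all entries, and 1 had an unadjusted p under 0.05, Gabra4 (70.9 FPKM in dark and 53.5 FPKM in light hours, a change of 0.36, SE 0.16, adjusted p = 0.139). The change of Gabrd there was -0.27 (SE 0.18, adjusted p = 0.320), and -0.00085 without the set-apart libraries.

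In iMSN-D2RKO mice after saline, 3 of 7 passed, against 27.3% of all entries. Gabra2 held 21.6, 14.8 and 26.4 FPKM at ZT3, 9.83, 17.1 and 19.8 FPKM at ZT7, and 12.8, 18.7 and 15 FPKM at ZT11. In dark hours it held 19.8, 26.8 and 20.2 FPKM at ZT15, 36.2, 24 and 30.3 FPKM at ZT19, and 26.6, 24.1 and 34.2 FPKM at ZT23, a change of 0.63 (SE 0.14, adjusted p = 0.00490). All 9 dark-hour libraries lay above the light-hour median of 17.1 FPKM, and the call held when any single library was left out (adjusted p at most 0.0239). Gabrd held 76.0, 96.1 and 181 FPKM (lowest, median and highest of 9) in light and 38.5, 74.3 and 119 FPKM in dark hours, a change of -0.60 (SE 0.18, adjusted p = 0.0201). Gabra5 held 12, 17.8 and 25.3 FPKM in light and 16.1, 23.2 and 41.4 FPKM in dark hours, a change of 0.47 (SE 0.16, adjusted p = 0.0313). The ranges of all 3 genes overlapped between light and dark hours.

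Without the 4 set-apart libraries, all in dark hours, none of these 3 passed. The change was then 0.44 for Gabra2 (adjusted p = 0.101), -0.16 for Gabrd (adjusted p = 0.734) and 0.11 for Gabra5 (adjusted p = 0.849). With the axis position as a covariate, the changes were 0.35, -0.15 and 0.16, and none passed. The Gabrd call was also lost without ZT7 replicate 1, the library of highest total FPKM (adjusted p = 0.0505), ZT15 replicate 2 (0.0784), ZT19 replicate 3 (0.0644) or ZT23 replicate 3 (0.103). The Gabra5 call was lost with any of 9 of the 18 libraries left out, namely ZT3 replicates 2 and 3, ZT7 replicate 1, ZT11 replicates 1 and 2, ZT15 replicate 2, ZT19 replicates 1 and 3, and ZT23 replicate 3, with adjusted p from 0.0524 to 0.129.

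In iMSN-D2RKO mice after cocaine, 0 of 7 passed, against 0.942% of all entries, and Gabra2 alone had an unadjusted p under 0.05 (27.5 FPKM in dark and 21.1 FPKM in light hours, a change of 0.37, SE 0.14, adjusted p = 0.230). The change of Gabrd was -0.11 (95% interval -0.47 to 0.26).

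**Figure D2:**
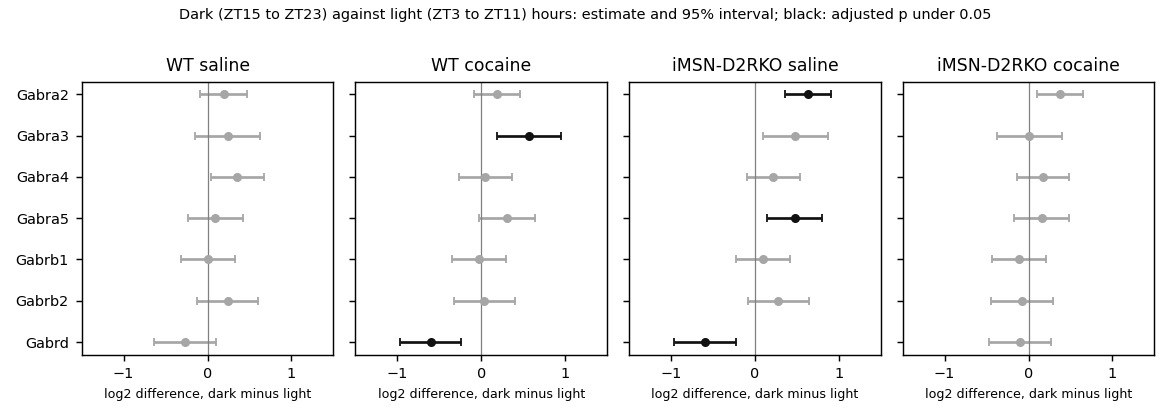
Difference between dark and light hours (log2 of FPKM + 1, dark minus light) for each gene in the 4 series, as the estimate and its 95% interval. Black marks an adjusted p under 0.05. Gabrd lies at -0.60 in WT cocaine and iMSN-D2RKO saline mice, and at -0.27 and -0.11 in the other 2 series, where the intervals include 0.

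**Figure D3:**
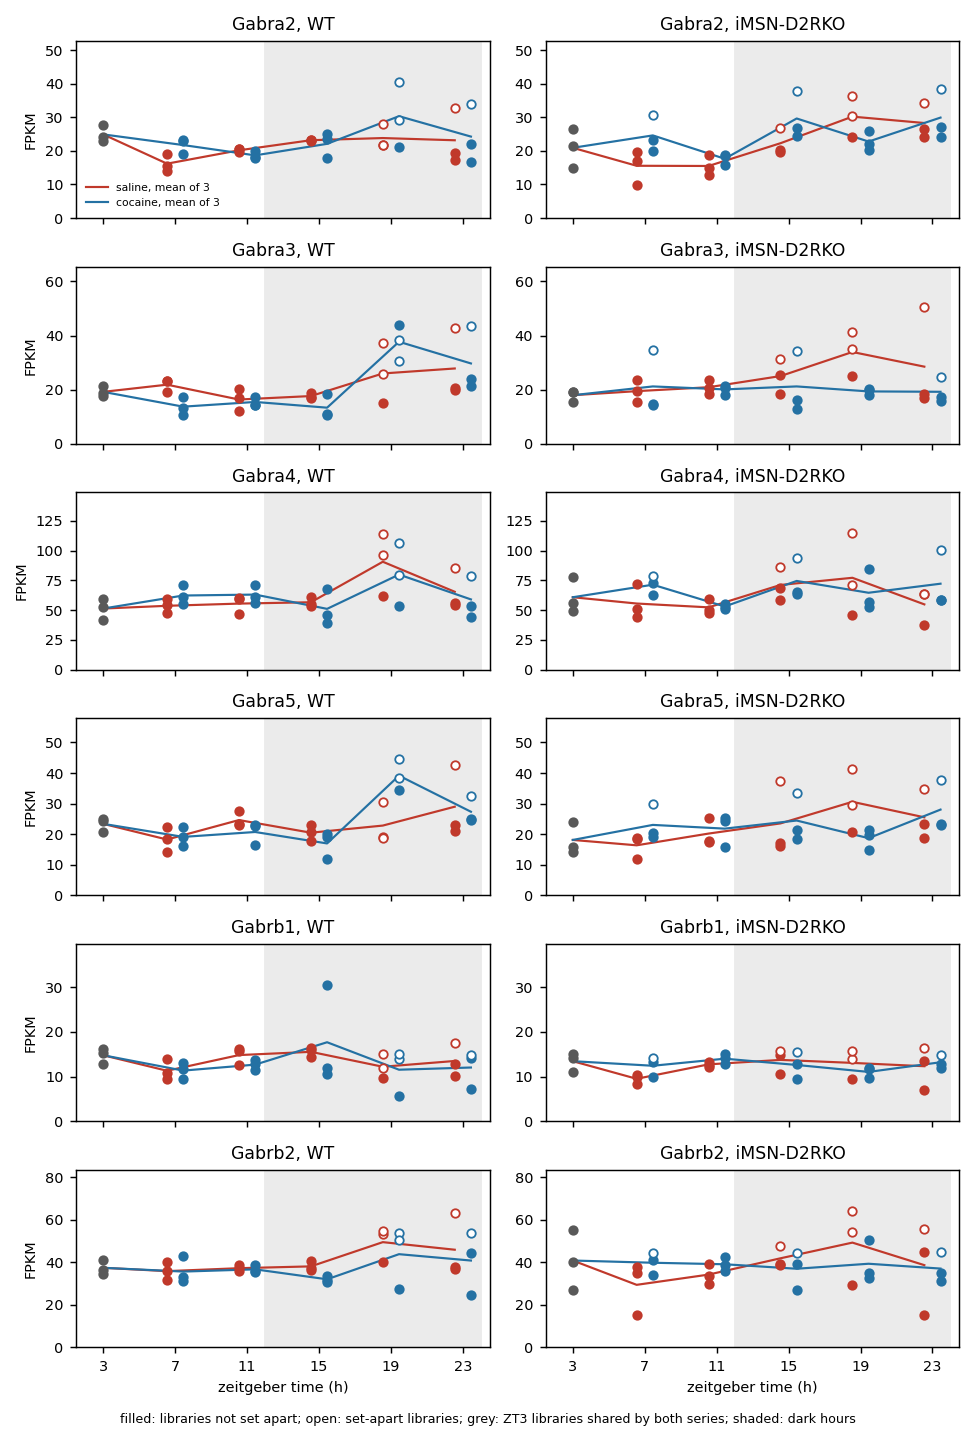
Levels of the other 6 subunit genes (FPKM, linear axes) against zeitgeber time in WT (left) and iMSN-D2RKO mice (right), with 1 point per library, lines through the means of 3 libraries, open points for set-apart libraries and shading for dark hours. Most of the highest values are open points, and the WT cocaine mean of Gabra3 stands at 37.7 FPKM at ZT19 after 13.4 FPKM at ZT15.

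Cocaine was compared with saline at each time from ZT7 to ZT23. No gene of the 7 passed at any single time in WT mice, where 0.0341% of all entries did, or in iMSN-D2RKO mice, where 0.0137% did. At an unadjusted p under 0.05, there was 1 of 35 values in WT and 4 of 35 in iMSN-D2RKO mice. Averaged over ZT7 to ZT23, 0 of 7 passed in WT mice, against 0.0137% of all entries, with changes of -0.14 to 0.12. In iMSN-D2RKO mice 0 of 7 passed, against 0% of all entries, with changes of -0.30 to 0.18. For Gabrd the average change was -0.060 in WT (95% interval -0.35 to 0.23) and 0.093 in iMSN-D2RKO mice (95% interval -0.19 to 0.38).

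Groups of 3 libraries did not overlap in 3 of the 35 single-time values in WT and in 4 of 35 in iMSN-D2RKO mice. Over all entries, the share without overlap at a single time was 4.53% to 12.6% in WT and 4.08% to 15.1% in iMSN-D2RKO mice. The counts were near these shares and are no result about the 7 genes. In WT mice at ZT7, where 9.06% of all entries did not overlap, Gabra3 was at 13.2, 10.7 and 17.3 FPKM after cocaine and 19.1, 23.2 and 23.3 FPKM after saline, a change of -0.65 (SE 0.33, adjusted p = 1). At ZT15 (12.6% of entries), Gabrb2 was at 31.6, 30.8 and 33.5 FPKM after cocaine and 36.6, 40.5 and 37.1 FPKM after saline. At ZT19 (8.84% of entries), Gabra5 was at 44.6, 34.6 and 38.3 FPKM after cocaine and 18.9, 30.6 and 19 FPKM after saline, a change of 0.78 (SE 0.28, adjusted p = 0.768). In each of these cases every cocaine library lay on one side of every saline library, and 2 of the 3 libraries in each WT group at ZT19 were set apart.

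In iMSN-D2RKO mice at ZT7, where 15.1% of entries did not overlap, Gabra2 was at 23.2, 30.7 and 19.9 FPKM after cocaine and 9.83, 17.1 and 19.8 FPKM after saline, a change of 0.66 (SE 0.24, adjusted p = 0.128). Gabra5 did not overlap there either, at 19.1, 29.7 and 20.3 FPKM after cocaine and 12, 18.5 and 18.6 FPKM after saline, a change of 0.47. The second cocaine library was set apart, and without it the changes were 0.49 for Gabra2 and 0.28 for Gabra5. At ZT19 (14.8% of entries), Gabrd was at 93.3, 85.2 and 108 FPKM after cocaine and 56.3, 84.5 and 39.3 FPKM after saline, a change of 0.72 (SE 0.32, adjusted p = 0.304). The closest pair of Gabrd values was 85.2 after cocaine and 84.5 after saline. Gabra3 ran the other way, with 20.4, 19.8 and 17.9 FPKM after cocaine and 35.1, 25.2 and 41.4 FPKM after saline, a change of -0.75 (SE 0.33, adjusted p = 0.304). Of the saline libraries 2 were set apart and of the cocaine libraries none, and without them the changes were 0.17 for Gabrd and -0.37 for Gabra3. The saline arm then held a single library, assumed to vary like the other groups, so no p-value is given.

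**Figure D4:**
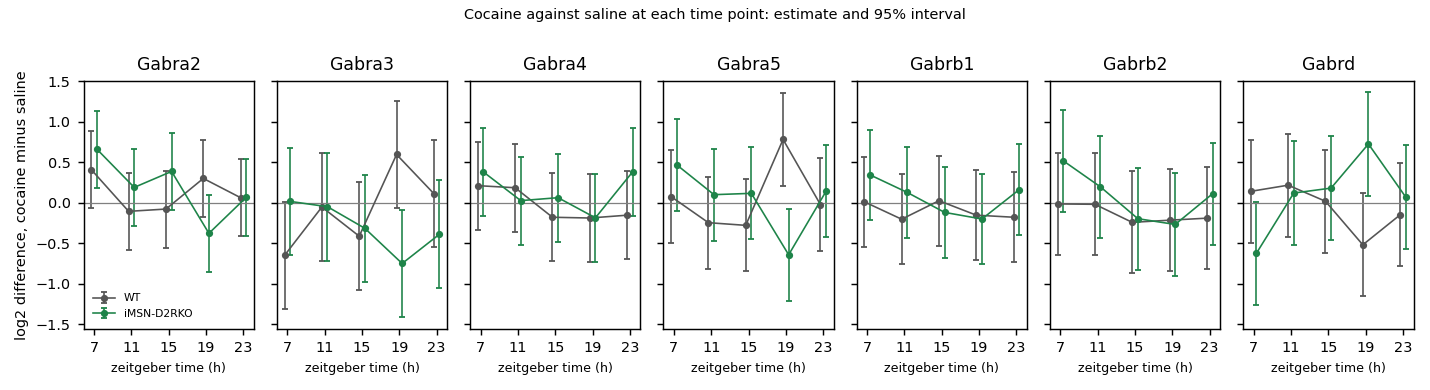
Difference between cocaine and saline (log2 of FPKM + 1, cocaine minus saline) for each gene at ZT7 to ZT23, as the estimate and its 95% interval, in WT (grey) and iMSN-D2RKO mice (green). At ZT19, Gabrd is at -0.52 in WT and 0.72 in iMSN-D2RKO mice, and Gabra5 is at 0.78 and -0.64.

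Whether the response to cocaine differed between the genotypes was tested as an interaction, averaged over time and at ZT7 and ZT19. No gene of the 7 passed, against 0.0137% of all entries. At an unadjusted p under 0.05 there were 4 genes, all at ZT19, where the cocaine effect in iMSN-D2RKO minus that in WT mice was 1.25 for Gabrd (SE 0.45), -1.42 for Gabra5 (SE 0.40), -1.35 for Gabra3 (SE 0.47) and -0.68 for Gabra2 (SE 0.33). Their adjusted p-values were 0.239 to 0.245. At ZT19, 2 libraries were set apart in 3 of the 4 groups and none in cocaine-treated iMSN-D2RKO mice. Without them, those 3 groups held a single library each, assumed to vary like the other groups. The interaction was then 1.17 for Gabrd and -1.86 for Gabra3. In WT cocaine against saline at ZT19, the change was 1.49 for Gabra3 and -1.0 for Gabrd. The WT cocaine library left, with Gabra3 at 43.9 FPKM, stood at 15.1 on the axis of the set-apart libraries, and the WT saline library at -13.8.

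No difference between the genotypes was detected by limma in any of the 7 genes. None passed between iMSN-D2RKO and WT mice after saline (against 0.212% of all entries), after cocaine (0.109%), at ZT3 (0.0410%) or over all 11 conditions (1.56%), and none had an unadjusted p under 0.05 in these 4 comparisons. Over all 11 conditions, mean levels in iMSN-D2RKO and WT mice were 87.1 and 90.1 FPKM for Gabrd, 64.3 and 62.6 FPKM for Gabra4, and 22.4 and 21.7 FPKM for Gabra3. Changes ran from -0.066 to 0.077, with SE of 0.071 to 0.0996 and 95% intervals that reached from -0.26 to 0.28 at the widest.

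In the set-apart libraries, Gabrd stood lower and the other 6 genes higher. The set-apart libraries were recognised from the whole profile, these genes included, so the values are a description. Gabrd held 38.5 to 63.5 FPKM (median 51.2) in the 13 set-apart libraries and 51.4 to 181 FPKM (median 94.1) in the other 53. Compared with the other libraries of their own group, available in 10 groups, the difference of Gabrd was -0.79 on the log2 scale, and 8.70% of the genes with a mean of at least 5 FPKM had a lower one. The other 6 genes were higher, by 0.53 for Gabra2 and Gabrb1, 0.61 for Gabra4, 0.62 for Gabrb2, 0.64 for Gabra5 and 0.81 for Gabra3. Of those genes, 78.2% had a lower difference than Gabrb1 and 90.9% a lower one than Gabra3, the ends of that range. Gabrd was lower without overlap in 9 of the 10 groups. The exception was the WT cocaine group at ZT19, with 41.5 and 58.2 FPKM in the set-apart libraries and 51.4 FPKM in the other. Gabrb1 and Gabrb2 were higher without overlap in 10 groups, and Gabra2, Gabra3, Gabra4 and Gabra5 in 9 each. For Gabra3 the exception was that same WT cocaine group, where it was highest in the library that was not set apart (43.9 FPKM).

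Of the other subunits examined, 2 had a mean of at least 5 FPKM, and both were higher too. The gamma subunit gene Gabrg1 had a median of 15.6 FPKM in set-apart and 8.60 FPKM in other libraries, with a log2 difference of 0.64 within groups. Gabrg3 had medians of 10.9 and 6.10 FPKM and a difference of 0.90 within groups. Gabrd was thus the only one of the 9 subunits described at this level that was lower. Over 8882 genes, the difference had a Spearman correlation of 0.43 with transcript length and -0.65 with transcript GC, and over these 9 subunits of 0.017 and 0.033. Gabrd is the shortest and most GC-rich transcript of the 9, and the part of length and GC in its difference was not tested. In bulk tissue, fewer cells of a type and less RNA per cell cannot be told apart. In set-apart and other libraries the median summed marker level was 4759 and 4201 FPKM for spiny neurons, 1543 and 1133 FPKM for interneurons, and 988 and 1103 FPKM for cortical excitatory neurons. It was 24.8 and 16.2 FPKM for thalamic or septal neurons, 365 and 244 FPKM for astrocytes, 2277 and 2912 FPKM for oligodendrocytes, 115 and 106 FPKM for microglia and 106 and 90.3 FPKM for endothelium. The ranges of each list overlapped, and the part of these cells in the result was not tested. Relative depth was 0.496 to 0.724 in the set-apart libraries (median 0.663) and 0.346 to 1.75 in the others (median 1.03), and its part was not tested either.

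**Figure D5:**
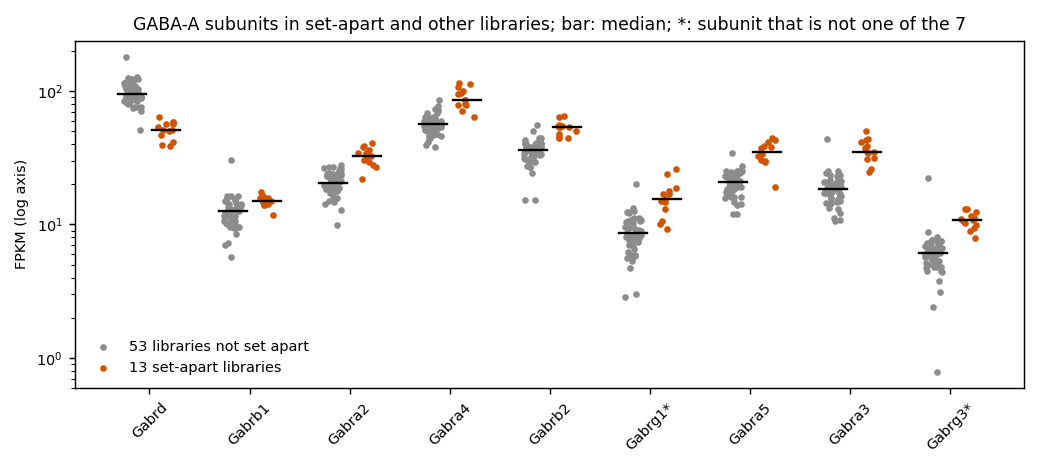
Levels of 9 GABA-A subunits with a mean of at least 5 FPKM (FPKM, log axis) in the 53 libraries that were not set apart (grey) and the 13 that were (orange), with 1 point per library and a bar at the median. The Gabrd medians are 94.1 and 51.2 FPKM, while each of the other 8 subunits shown has the higher median in the set-apart libraries.

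Gabrd also ran against other subunits among the libraries that were not set apart. Over 50 such libraries, as deviations from their group mean on the log2 scale and with permutation within groups, Gabrd was negatively related to Gabra3 (Pearson r = -0.616, permutation p = 0.00287, adjusted 0.00861; Spearman rho = -0.659, permutation p = 1.4e-04, adjusted 8.4e-04). It was also negatively related to Gabrb1 (r = -0.590, permutation p = 8.5e-04, adjusted 0.00510; rho = -0.539, permutation p = 0.00270, adjusted 0.00810). The third relation was to Gabrb2 (r = -0.561, permutation p = 0.00852, adjusted 0.0170; rho = -0.520, permutation p = 0.00473, adjusted 0.00946). Without the 2 libraries farthest from the median of Gabrd, r was -0.560, -0.571 and -0.484. The relations to Gabra2, Gabra4 and Gabra5 did not pass, with r of -0.223, 0.189 and -0.289 (6 relations in the family, two-sided). The 53 libraries not set apart still ranged from -35.9 to 15.1 on the axis of the set-apart libraries. That position was not taken out of these relations, and its part was not tested.

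Within the 13 set-apart libraries, which came from 10 groups of both genotypes and treatments, relations were computed on the levels themselves, with no group mean taken out and with permutation over all 13. On this scale Gabrd was positively related to Gabra4 (r = 0.890, permutation p = 5.0e-05, adjusted 3.0e-04; rho = 0.846, permutation p = 5.0e-04, adjusted 0.00300) and negatively to Gabra3 (r = -0.703, permutation p = 0.00740, adjusted 0.0222; rho = -0.698, permutation p = 0.00977, adjusted 0.0293). Without the 2 farthest libraries, r was 0.791 and -0.538. Differences between groups enter these values and not those over the 50 libraries, so the relations in the 2 sets of libraries are not like for like, and the difference between the sets was not tested.

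The genes whose 22 group means followed Gabrd most closely, as Pearson r over group means, were Adora2a, the adenosine receptor of D2-type spiny neurons (0.966), Them6 (0.960), Asphd2 (0.955), Wdr54 (0.951) and Rxrb, a retinoid X receptor (0.949). For these 5 genes, r was 0.882 to 0.928 without the set-apart libraries. The groups share the set-apart libraries, so these are descriptions. Those closest to Gabra3 were Sobp (0.963), 3632451O06Rik (0.956) and Klhdc2 (0.953), and to Gabra5 A830018L16Rik (0.948), Pde1a (0.932) and Ldb2 (0.925). Closest to Gabra2 were Homer1 (0.906), a postsynaptic scaffold gene, Peli1 (0.902) and Fam84a (0.880), and to Gabra4 Ube2g1 (0.904), Spock3 (0.891) and Rab39b (0.884). Gabrb1 was most like Sec22c (0.882), Slc1a2 (0.878), an astrocytic glutamate transporter, and Arnt2 (0.851), and Gabrb2 most like Tmem56 (0.918), Nceh1 (0.900) and Cntn1 (0.896). Without the set-apart libraries, r was 0.883 to 0.925 for the genes closest to Gabra3, 0.838 to 0.882 for Gabra5 and 0.811 to 0.917 for Gabrb1. It was 0.665 to 0.789 for Gabrb2, 0.646 to 0.813 for Gabra2 and 0.533 to 0.690 for Gabra4.

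Other genes of the GABA system were examined between dark and light hours as 5 lists with 38 genes tested, counting those with an adjusted p under 0.05 in limma. In iMSN-D2RKO mice after saline 11 of 38 passed (28.9%, against 27.3% of all entries), and in WT mice after cocaine 2 of 38 (5.26%, against 13.7%). These shares were near or under those of all entries and are no result about the GABA system. In the other 2 series 0 of 38 passed. Of 9 other GABA-A subunits examined, 5 were tested, and 2 were higher in dark hours in iMSN-D2RKO mice after saline, Gabrg1 (0.75, SE 0.22) and Gabre (0.77, SE 0.26). Gabre stood at 2.07 FPKM in dark and 0.472 FPKM in light hours. The median change of the 5 was 0.74, against 0.032 over all entries tested. Levels were low, since Gabre, Gabrq and Gabrr2 averaged 0.944, 1.63 and 0.705 FPKM over all libraries. Gabra6, Gabrp and Gabrr3 reached at most 0.133 FPKM in any library and were listed at 0 in 54, 55 and 41 of 66.

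Of 15 genes of receptor anchoring and trafficking, 2 were lower in dark hours in WT mice after cocaine, where 13.7% of all entries passed, Gabarapl2 (-1.03, SE 0.34) and Clptm1 (-0.14, SE 0.047). In iMSN-D2RKO mice after saline, where 27.3% did, 3 of 15 passed. Clptm1 (-0.20, SE 0.047) and Gabarapl2 (-0.90, SE 0.34) were lower and Plcl1 (0.44, SE 0.16) higher. Clptm1 retains GABA-A receptors in the endoplasmic reticulum, and Plcl1 and Gabarapl2 belong to families that bind or carry the receptor. In the same series, the GABA-B receptor genes Kctd12 (0.49, SE 0.15) and Kctd8 (0.56, SE 0.17), both auxiliary subunits, were higher, 2 of 5. Of 8 genes of GABA synthesis and transport, Gad2, which makes GABA, was higher (0.63, SE 0.20), and the transporters Slc32a1 (-0.55, SE 0.20) and Slc6a13 (-0.34, SE 0.11) were lower. Of 5 chloride transporter genes, Clcn2, a chloride channel, was lower (-0.58, SE 0.20). None of these lists had a gene past the threshold in cocaine against saline or between the genotypes. Without the set-apart libraries, no gene of these lists passed in iMSN-D2RKO mice after saline. In WT mice after cocaine, Gabarapl2 and Clptm1 still passed, and Gabre, Kctd8 (both higher), Nlgn2, Gabbr1, Kctd16, Slc32a1 and Slc6a13 (all lower) were added, 9 of 38 (23.7%) in a setting in which 18% of all entries passed.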

How the data were processed

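RNA-seq of mouse NAcc punches gave 72 table columns, of which 6 repeated another, leaving 66 libraries. The authors prepared TruSeq stranded poly(A) libraries, aligned reads to mm10 with TopHat and Bowtie2, assembled transcripts with Cufflinks, and deposited FPKM per gene from Cuffnorm; the submitters' notes also name CASAVA 1.8.2. FPKM hold no counts, so no count test was used. Entries that reached 1 FPKM in any library were tested on log2(FPKM + 1) with limma 3.58.1 (R 4.3.3), with trend, 22 group means and Benjamini-Hochberg adjustment over all 14643 entries. The rhythm comparisons fitted 24 h cosines and used 14238 to 14421 entries, and those of cocaine against saline left out ZT3. JTK_CYCLE followed the rules of version 3.1 (periods of 20 to 24 h, corrected over 11 pairs of period and phase) with Dixon's test removing outlying replicates. It was run in Python 3.11.15, and correlations used permutation of the libraries. The limma and JTK_CYCLE steps were tested on simulated data. Set-apart libraries are those with a high position on the first axis of within-group variation (43.6% of it, over 9584 genes). Gene positions are from GENCODE on GRCm38.

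Some genes of the receptor family are not reported here. The 7 genes and the lists were chosen with earlier results of these data known. All 7 genes are named in every comparison; of the other lists at most 4 called genes were named by smallest p, and those added without the set-apart libraries were chosen after their values were seen. The likest genes were the 5 (Gabrd) or 3 (others) of highest r with a mean of at least 5 FPKM. Alternatives were a pseudocount of 0.1, no filter, size factors, a replicate block, only the groups compared, leaving out replicates or the set-apart libraries, and the axis position as a covariate. Leaving out the library of highest total FPKM was added after seeing the data. Replicates of the same number did not deviate together (correlation of deviations -0.895 to 0.880, median -0.0027), so the numbers do not pair libraries.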

Additional observations from a re-analysis of the deposited data

How the results depend on the processing

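In WT mice after cocaine, the count of rhythmic genes fell from 2 to 1 with size factors, to 1 when any of replicates 1, 2 or 3 was left out (lowest 1, highest 1), and to 0 without the set-apart libraries or with the axis position removed. The gene that passed was not the same each time: it was Gabrd without replicate 1, Gabra3 without replicate 3, and without replicate 2 Gabra2 (exact p = 0.00805), with Gabrd (0.0499) and Gabra3 (0.208) both lost. In iMSN-D2RKO mice after saline the count stayed at 1, Gabra2, with size factors and with the axis position removed (exact p = 0.00755 in the latter). It was 0 without the set-apart libraries and 0 to 1 with a replicate left out. Of the dark and light differences, 2 in WT mice after cocaine, 1 passed without the filter on low FPKM, 1 with size factors, 0 with the axis position as a covariate and 0 to 1 with a replicate left out. Of the 3 in iMSN-D2RKO mice after saline, 0 passed with the covariate, 0 with only the groups compared, 0 without the set-apart libraries, 1 without the library of highest total FPKM and 0 to 4 with a replicate left out. Cocaine against saline at single times, with 0 genes, gave 0 to 1 in iMSN-D2RKO mice with a replicate left out. The difference of the cocaine effect between genotypes, also 0, gave 0 to 4 with a replicate left out. Without the set-apart libraries, groups at ZT19 held a single library, so no count is given for these comparisons. Where leaving out a replicate or the axis position changed a count, the cause was not tested. The replicate block kept all 5 dark and light calls, with Gabrd at -0.60 in both series, and so did a pseudocount of 0.1. The relation of Gabrd to Gabra2 was -0.22 in libraries that were not set apart and 0.0054 in those that were. JTK_CYCLE was run without a block. With 3 libraries a group, the SE of a single-time change was 0.24 to 0.33, which limits what could be detected.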
